A study of Mus musculus with 6 samples.

Results

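The 10 genes studied here supply peptides to MHC class I molecules and load them, and were followed in bone marrow neutrophils: *B2m*, *Tap1*, *Tap2*, *Tapbp*, *Tapbpl*, *Psmb8*, *Psmb9*, *Psmb10*, *Psme1* and *Erap1*. They were picked by symbol, and all 10 were found, each on 1 row of the 47561 rows deposited, and all 10 were among the 15778 genes tested. Of the 6 libraries, 3 came from male WT mice of the CUMS group, for chronic unpredictable mild stress, in which environmental stressors follow one another for 4 weeks, and 3 came from male WT mice labelled Control. Neutrophils were sorted from marrow by flow cytometry and total RNA was sequenced, to 78845457 to 109757558 estimated counts a library, where about 4 counts stand for 1 read pair. No strain, age or gate is stated, and nothing says that the libraries are of separate animals, so the p-values speak of the spread among these samples, which may be technical.

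Class I molecules present short peptides from inside the cell to CD8 T cells and, through their overall level, to natural killer cells. The peptides are cut by the proteasome, in which interferon replaces the catalytic subunits of the standard particle by inducible ones, and the PA28 activator opens the particle. The TAP transporter pumps the peptides into the endoplasmic reticulum, aminopeptidases trim them there, and tapasin and its helpers load them onto a heavy chain paired with beta-2-microglobulin. Many of these genes are induced together by interferons, and by the class I transactivator NLRC5.

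*Tap1* and *Psmb9* were past the threshold, 2 of the 10, and both were higher in CUMS: *Tap1*, a gene of the transporter, 1.29-fold, and *Psmb9*, a gene of an inducible proteasome subunit, 1.17-fold. The threshold was an adjusted p of 0.05 in edgeR's quasi-likelihood test with Benjamini-Hochberg adjustment over all genes, which 4.5% of all 15778 genes passed, with 2.36% of all genes higher in CUMS. None of the 10 was past it in the other direction (2.14% of all genes were), also with DESeq2, and the members at an unadjusted p under 0.05 (5 of 10, against 16.9% of all genes) were all higher in CUMS. The *Psmb9* call stood close to the limit and ended without any single library (adjusted p 0.053 to 0.17), while that of *Tap1* held without each of them (0.0015 to 0.011). The median log2 fold change of the 10 members was 0.13, against -0.0073 over all genes tested, and the single values ran from 0.0064 (*Psme1*) to 0.36 (*Tap1*). In RNA from a pool of cells, a difference in the number of cells of a type and in the RNA per cell cannot be told apart.

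**Figure D1:**
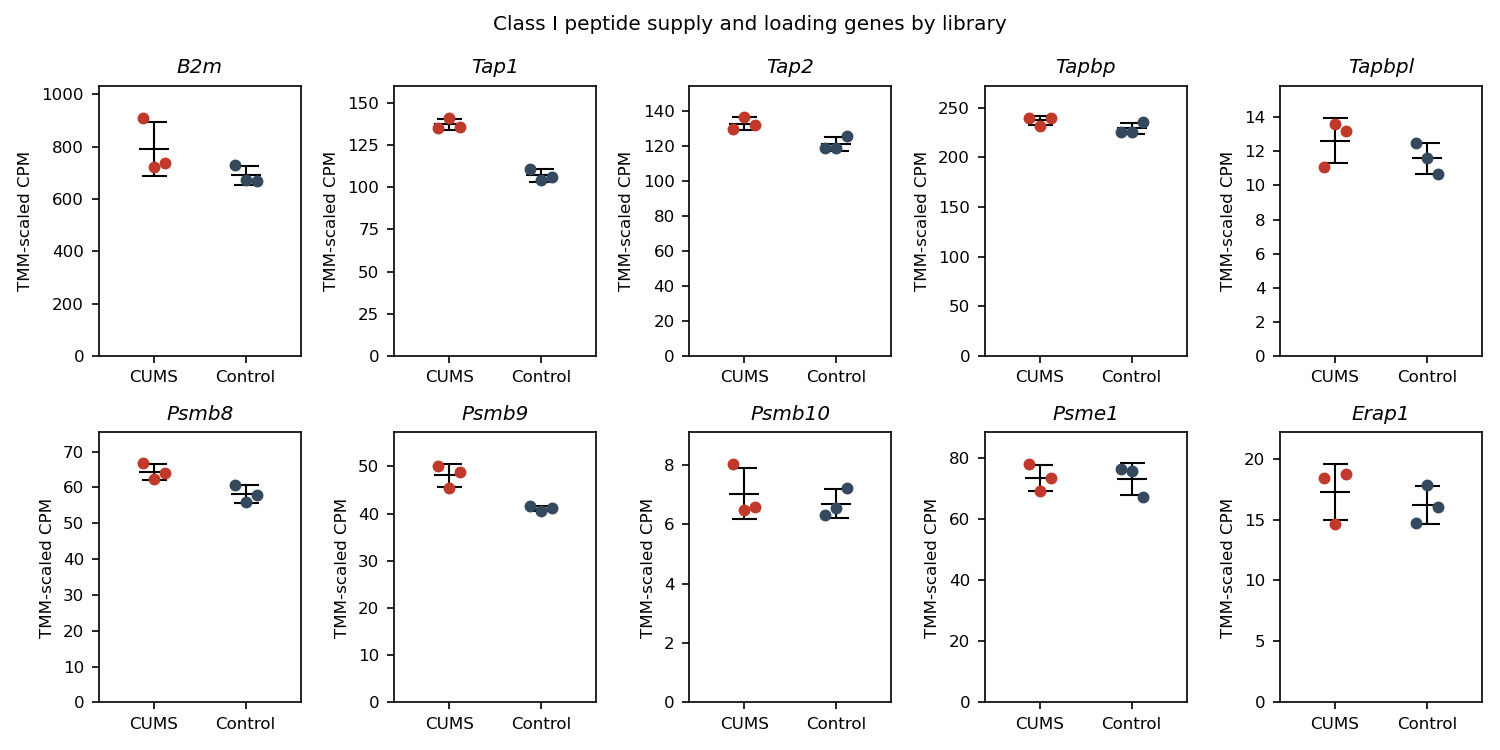
Transcript level of each of the 10 members in CPM (counts scaled to library size), with 3 CUMS and 3 Control libraries as points and the mean with its SD as bars. The CUMS points lie wholly above the Control points for *Tap1*, *Tap2*, *Psmb8* and *Psmb9*, and the groups overlap for the other members.

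The genes with the only calls share a stretch of DNA. *Psmb9* (minus strand, 34181987 to 34187764) and *Tap1* (plus strand, 34187553 to 34197225) lie head to head on chromosome 17 in GENCODE M21 on GRCm38, where their exons overlap by 212 bp and reads cannot be told apart without strand. In RefSeq (GRCm38.p6) their starts are 226 bases apart and point away from each other, and their 300-base promoter windows, which run from 250 bases before to 50 bases after a start, share 275 bases. The *Tap1* window below therefore holds nearly all of the *Psmb9* window, read from the opposite strand. The *B2m* and *Erap1* windows are shown beside it because they hold a letter pattern that the shared window lacks. Capitals mark matches, on either strand, to the IRF pair (GAAA, any 2 bases, GAAA, the steps that interferon regulatory factors read), to CCAAT (read by NF-Y) and to TGACG (the core of a cyclic AMP response element, also found in the X2 box of class I promoters). No match overlapped another in these windows, whose sequences are from RefSeq.
Tap1, chr17:34187306-34187605, plus strand: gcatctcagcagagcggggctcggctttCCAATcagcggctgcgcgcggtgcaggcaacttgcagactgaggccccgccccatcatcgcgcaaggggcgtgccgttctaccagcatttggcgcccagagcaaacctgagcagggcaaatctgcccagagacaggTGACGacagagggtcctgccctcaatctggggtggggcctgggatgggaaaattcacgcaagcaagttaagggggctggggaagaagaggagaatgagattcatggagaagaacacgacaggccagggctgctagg
B2m, chr2:122147437-122147736, plus strand: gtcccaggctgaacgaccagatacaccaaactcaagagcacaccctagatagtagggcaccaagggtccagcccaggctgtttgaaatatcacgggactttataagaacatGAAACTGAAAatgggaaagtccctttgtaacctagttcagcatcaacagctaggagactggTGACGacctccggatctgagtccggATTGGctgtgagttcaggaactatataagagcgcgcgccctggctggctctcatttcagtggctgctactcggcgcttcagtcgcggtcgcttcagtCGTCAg
Erap1, chr13:74639603-74639902, plus strand: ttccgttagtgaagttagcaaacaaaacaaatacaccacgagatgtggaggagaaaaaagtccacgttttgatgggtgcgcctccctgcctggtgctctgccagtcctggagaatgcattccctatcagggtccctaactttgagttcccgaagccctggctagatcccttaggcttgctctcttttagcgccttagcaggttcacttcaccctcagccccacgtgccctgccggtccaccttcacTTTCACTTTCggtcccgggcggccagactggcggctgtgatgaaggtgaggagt

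The shared *Tap1* and *Psmb9* window and the *B2m* window each held both CCAAT and TGACG, which occur in 37.4% and 20.8% of all 32851 RefSeq promoter windows of this length. The IRF pair, found in 3.44% of all windows, occurred in the windows of *B2m*, *Erap1* and *Psme1*, which were not past the threshold, and not in the shared *Tap1* and *Psmb9* window. Windows were available for 8 of the 10 members, those without one being *Tap2* and *Tapbpl*. These are matches of letters and not measured sites.

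*Tap1* encodes the first subunit of the peptide pump. In CPM, counts scaled to library size by TMM, it measured 135, 141 and 136 in CUMS replicates 1 to 3, against 111, 104 and 106 in Control replicates 1 to 3. Every CUMS library lay above every Control library, with a gap far wider than the spread within a group. The means were 137 ± 3.17 CPM in CUMS and 107 ± 3.81 CPM in Control (SD, n = 3 each), which is 0.36 ± 0.045 on the log2 scale (SE, edgeR adjusted p = 0.001), and the call held under all 15 alternative settings.

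*Tap2* encodes the other subunit of the pump (chromosome 17, 34203527 to 34216321, plus strand). It measured 130, 137 and 132 CPM in the CUMS libraries and 119, 119 and 126 CPM in the Control libraries. These groups did not overlap either, but the step between them was small. Its log2 fold change was 0.14 ± 0.045 (SE, edgeR adjusted p = 0.13, 95% interval 0.04 to 0.24). DESeq2 called it (adjusted p = 0.037), where 6.41% of the 10575 genes with a DESeq2 adjusted p were called higher. Because the pump needs both subunits, their ratio was compared within each library. The *Tap1* to *Tap2* ratio of CPM was 1.04, 1.03 and 1.03 in CUMS and 0.936, 0.877 and 0.838 in Control, without overlap, a log2 difference of 0.22 ± 0.047 (SE, two-sided exact permutation test, p = 0.1, the lowest value possible with 3 libraries a group).

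The inducible subunits of the proteasome core replace the standard ones in newly built particles. *Psmb9* (beta-1i, which takes the place of the *Psmb6* product) measured 50.1, 45.4 and 48.8 CPM in CUMS, against 41.5, 40.5 and 41.1 CPM in Control. The Control libraries were nearly equal and all CUMS libraries lay above them. The means were 48.1 ± 2.44 and 41.1 ± 0.49 CPM (CUMS and Control, SD, n = 3 each), or 0.23 ± 0.058 on the log2 scale (SE, edgeR adjusted p = 0.049), with the call ending as given above and also with no filter on low counts (0.069).

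*Psmb8* (beta-5i, which takes the place of the *Psmb5* product) lies next to *Tap1* on the same strand (34197721 to 34201454). It had 66.7, 62.3 and 64.1 CPM in the CUMS libraries, set against 60.8, 55.8 and 57.9 CPM in the Control libraries. The groups were apart by a narrow margin. Its log2 fold change of 0.15 ± 0.054 (SE) did not pass (edgeR adjusted p = 0.18, 95% interval 0.03 to 0.26), nor did it under any of the 15 alternatives.

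*Psmb10* (beta-2i, which takes the place of the *Psmb7* product) lies on chromosome 8 (105935735 to 105938444, minus strand). Its libraries held 8.03, 6.50 and 6.59 CPM in CUMS and 6.32, 6.55 and 7.24 CPM in Control. The groups overlapped, and CUMS replicate 1 alone stood high. The log2 fold change was 0.07 ± 0.13 (SE, edgeR adjusted p = 0.87, 95% interval -0.22 to 0.36) and turned to -0.03 without that library, and its interval reaches the size seen in *Tap1*, at a depth of 124 to 181 read pairs.

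Of the standard subunits that these products displace, 1 of 3 was called, and it was lower in CUMS. *Psmb7* measured 30.0, 24.3 and 25.7 CPM in CUMS, against 37.3, 32.3 and 34.4 CPM in Control. All CUMS libraries were below all Control libraries, and *Psmb7* fell by 0.38 ± 0.087 on the log2 scale (SE, edgeR adjusted p = 0.032, where 2.14% of all genes were called lower), but leaving out any library except CUMS replicate 1 raised its adjusted p above 0.05 (0.064 to 0.15). *Psmb6* had 17.7, 21.4 and 16.3 CPM in CUMS and 23.8, 22.3 and 21.5 CPM in Control, which do not overlap, with a log2 fold change of -0.28 ± 0.10 that did not pass (edgeR adjusted p = 0.17). *Psmb5* had 24.4, 18.5 and 18.3 CPM in CUMS and 23.8, 24.0 and 21.6 CPM in Control, which overlap through CUMS replicate 1 (-0.18 ± 0.11, edgeR adjusted p = 0.45). Without that library the log2 fold change of *Psmb5* was -0.33 (0.058), and it was -0.12 without CUMS replicate 2 and -0.11 without CUMS replicate 3.

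The ratio of each of the 3 inducible subunits to its standard counterpart within a library was higher in CUMS. Both genes of a pair enter its ratio, and the log2 fold change was 0.23 for *Psmb9* and -0.28 for *Psmb6*. It was 0.07 for *Psmb10* and -0.38 for *Psmb7*, and 0.15 for *Psmb8* and -0.18 for *Psmb5*. Among these genes only *Psmb9* and *Psmb7* were called with edgeR. The *Psmb9* to *Psmb6* ratio of CPM was 2.83, 2.12 and 2.99 in CUMS and 1.74, 1.82 and 1.91 in Control, 1.43-fold higher in CUMS. The *Psmb10* to *Psmb7* ratio was 0.268, 0.267 and 0.256 in CUMS and 0.170, 0.203 and 0.211 in Control, 1.36-fold higher. The *Psmb8* to *Psmb5* ratio was 2.74, 3.36 and 3.51 in CUMS and 2.56, 2.33 and 2.68 in Control, 1.26-fold higher, although CUMS replicate 1 was near the highest Control library. None of the 3 pairs overlapped between the groups, with log2 differences of 0.52 ± 0.16, 0.45 ± 0.099 and 0.34 ± 0.13 (SE) and an exact permutation p of 0.1 each. In all, 7 ratios were compared, 4 of them without overlap, and adjusted over the 7 (Benjamini-Hochberg) these exact p-values became 0.175. Of single genes tested, 22.9% had groups that did not overlap, and no such share was computed for ratios. No ratio could pass 0.05 in this design.

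**Figure D2:**
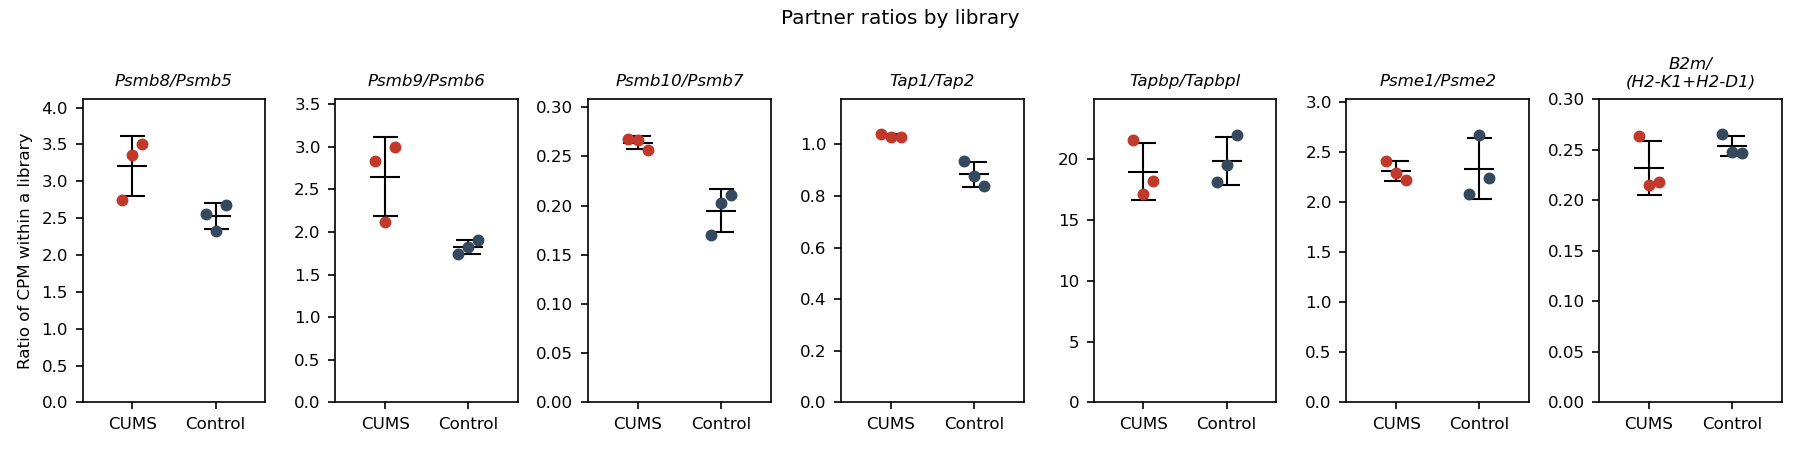
Ratio of CPM of a member to its partner within each library for the 7 pairs compared, with 3 CUMS and 3 Control libraries as points and the mean with its SD as bars. The groups do not overlap for the inducible over standard proteasome subunits and for *Tap1* over *Tap2*, and they overlap for the remaining 3 ratios.

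Per kb of merged exon, the inducible subunits were not at equal levels. *Psmb8* averaged 39.5 ± 1.35 CPM per kb in CUMS and 35.7 ± 1.55 CPM per kb in Control (SD, n = 3 each), and *Psmb9* 35.6 ± 1.81 and 30.4 ± 0.363 in the same order of groups. *Psmb10* averaged 5.37 ± 0.653 CPM per kb in CUMS and 5.11 ± 0.367 CPM per kb in Control, well under both. On this scale *Psmb8* was 1.77 ± 0.226 times its counterpart *Psmb5* in CUMS and 1.39 ± 0.0988 times in Control, and *Psmb9* was 1.56 ± 0.274 and 1.08 ± 0.0511 times *Psmb6*. *Psmb10*, by contrast, was 0.233 ± 0.00563 times *Psmb7* in CUMS and 0.172 ± 0.0193 times in Control, so that here the standard subunit had the higher level in both groups.

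*Psme1* (chromosome 14, 55578123 to 55581529, plus strand) encodes the alpha subunit of the PA28 activator. It measured 77.9, 69.1 and 73.3 CPM in CUMS, against 76.4, 75.8 and 67.1 CPM in Control. The groups lay on top of each other. Its log2 fold change was 0.0064 ± 0.064 (SE, edgeR adjusted p = 0.98), and its 95% interval, -0.13 to 0.15, lies below the change of *Tap1*. The beta subunit gene *Psme2* gave 0.0074 ± 0.092 (edgeR adjusted p = 0.98), but it has a near-identical copy, *Psme2b*, so reads may be exchanged between them and both values are uncertain. The *Psme1* to *Psme2* ratio was 2.41, 2.29 and 2.22 in CUMS and 2.08, 2.67 and 2.24 in Control (exact permutation p = 0.9).

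*B2m*, the light chain gene on chromosome 2 (122147686 to 122153083, plus strand), had by far the highest level of the members. The antisense gene *Patl2*, whose body spans it without shared exon bases, reached at most 0.018 CPM. It measured 909, 722 and 739 CPM in CUMS and 730, 672 and 668 CPM in Control. CUMS replicate 1 stood well above all other libraries, while CUMS replicate 2 was below the highest Control library, so the groups overlapped. The log2 fold change of 0.20 ± 0.075 (SE) did not pass (edgeR adjusted p = 0.20, 95% interval 0.03 to 0.36), and without CUMS replicate 1 it was 0.08. With the replicate number as a block it passed (0.19, edgeR adjusted p = 0.023), although no label says that the numbers pair the samples. Its partners, the classical heavy chain genes, were called: *H2-K1* averaged 702 ± 11.1 CPM in CUMS and 408 ± 14.4 CPM in Control (log2 fold change 0.79 ± 0.039, edgeR adjusted p = 2.2e-06), and *H2-D1* 2693 ± 41.2 and 2314 ± 12.4 CPM (0.22 ± 0.031, 0.002). The ratio of *B2m* to the sum of both was 0.263, 0.215 and 0.218 in CUMS, against 0.265, 0.248 and 0.247 in Control, with overlap through CUMS replicate 1 (log2 difference -0.13 ± 0.10, exact permutation p = 0.3). The difference was -0.22 without CUMS replicate 1 and -0.08 without CUMS replicate 2.

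*Tapbp* encodes tapasin, which bridges the TAP pump and the empty class I molecule. It measured 240, 232 and 240 CPM in CUMS, against 226, 226 and 236 CPM in Control. The ranges overlapped and differed by a few percent, and the log2 fold change was 0.05 ± 0.04 (SE, edgeR adjusted p = 0.62, 95% interval -0.04 to 0.14). *Tapbpl* (chromosome 6, 125223933 to 125231860, minus strand) encodes TAPBPR, a relative of tapasin that edits the peptide outside the loading complex. Its libraries held 11.1, 13.6 and 13.2 CPM in CUMS and 12.5, 11.6 and 10.7 CPM in Control, overlapping (0.12 ± 0.11, edgeR adjusted p = 0.66, 95% interval -0.12 to 0.37). Leaving out single libraries moved it between 0.07 (without CUMS replicate 2 or Control replicate 3) and 0.21 (without CUMS replicate 1). In GENCODE the whole of *Tapbpl* lies within the body of *Vamp1*, a gene on the opposite strand at 13.5 to 15.2 CPM over the 6 libraries, but their exons share 0 bases.

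*Erap1* (chromosome 13, 74639568 to 74693201, plus strand) encodes the aminopeptidase that trims peptides in the endoplasmic reticulum. It measured 18.4, 14.6 and 18.7 CPM in CUMS, against 14.7, 17.8 and 16 CPM in Control. Libraries of both groups were interleaved, and the log2 fold change was 0.09 ± 0.11 (SE, edgeR adjusted p = 0.77, 95% interval -0.16 to 0.34). Leaving out single libraries moved it between 0.03 (without CUMS replicate 3 or Control replicate 1) and 0.20 (without CUMS replicate 2). Its exons overlap by 834 bp those of *Cast*, an antisense gene at 277 to 290 CPM, and without strand reads there cannot be told apart. *Erap1* had the lowest level per length of the members, 3.06 ± 0.407 CPM per kb in CUMS and 2.86 ± 0.275 CPM per kb in Control (SD, n = 3 each).

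Ordered by level per kb of merged exon, *B2m* came first with 918 ± 120 CPM per kb in CUMS and 802 ± 40.5 in Control. *Tapbp* followed at 81.9 ± 1.57 and 79.2 ± 1.95, and *Psme1* at 66.0 ± 3.95 and 65.7 ± 4.66, for the same groups. *Tap1* stood at 46.6 ± 1.07 CPM per kb in CUMS and 36.2 ± 1.29 in Control, and *Tap2* at 38.7 ± 0.976 and 35.2 ± 1.22. In Control, *Tap1*, *Psmb8* and *Tap2* did not differ beyond their spread. In CUMS, *Tap1* stood apart above *Psmb8* and *Tap2*, which did not differ from each other beyond theirs. *Tapbpl* (5.37 ± 0.556 and 4.93 ± 0.366) and *Psmb10* were likewise level with each other in both groups, above *Erap1*.

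**Figure D3:**
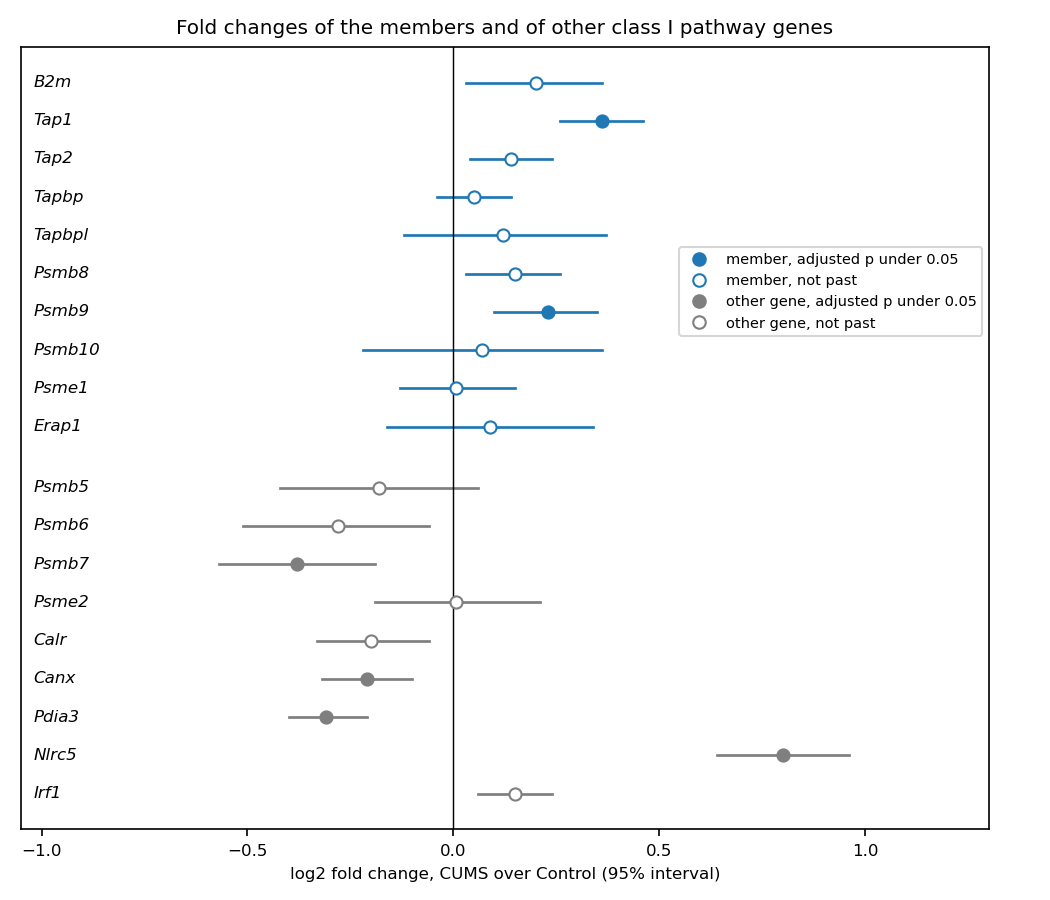
Log2 fold change of CUMS over Control with its 95% interval for the 10 members (blue) and for 9 other genes of the class I pathway (grey), filled where the edgeR adjusted p was under 0.05. Among the members *Tap1* and *Psmb9* are filled, and the standard proteasome subunit genes and the chaperone genes lie left of 0 while *Nlrc5* lies far to the right.

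Of the 10 members, 5 lie on chromosome 17. *Psmb9*, *Tap1*, *Psmb8* and *Tap2* occupy a single interval of 34.3 kb (34181987 to 34216321, GRCm38) and are the same 4 members whose groups did not overlap, where 22.9% of all genes tested had groups that did not overlap and 11.5% had CUMS wholly above Control. *Tapbp* lies outside it (33915899 to 33929292), and 3422 bp of it overlap the body of *Zbtb22* on the same strand, with 0 shared exon bases. Within 100 kb on either side of that interval, the annotation has 9 other protein-coding genes, 8 of them class II genes at low levels and the chromatin reader gene *Brd2*. None of the 9 passed with edgeR or with DESeq2, and 2 had an unadjusted edgeR p under 0.05. *Brd2* was the most abundant, averaging 202 CPM in CUMS and 188 CPM in Control (log2 fold change 0.10 ± 0.041, adjusted p = 0.22).

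CUMS replicate 1 had the highest level of the 6 libraries for 6 members (*B2m*, *Tapbp*, *Psmb8*, *Psmb9*, *Psmb10* and *Psme1*). For *Tap1*, *Tap2* and *Tapbpl* the highest library was CUMS replicate 2, and for *Erap1* CUMS replicate 3. No Control library was highest for any member, and the lowest library was a Control one for all members except *Erap1*. The share of all genes with such a pattern was not computed. These counts are not independent of the log2 fold changes, which were above 0 for all 10 members and for 48.4% of all genes tested.

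Other genes of the pathway were described from 7 lists, 96 genes tested in all, of which 10 were higher and 4 lower in CUMS with edgeR. Of all genes tested, 2.36% were called higher and 2.14% lower. The 10 higher genes were 6 class I heavy chain genes and 4 regulators, and the other lists had 0 higher. Of 14 loading chaperone and trimming genes, 2 fell and 0 rose with edgeR (3 and 0 with DESeq2, and 6 and 1 at an unadjusted edgeR p under 0.05). In this list 11 had a log2 fold change below 0, and the median log2 fold change was -0.09. *Pdia3*, the oxidoreductase that pairs with tapasin, fell to 99.7 ± 2.40 CPM in CUMS, against 123 ± 3.79 CPM in Control (-0.31 ± 0.045, adjusted p = 0.003). *Canx*, the lectin chaperone calnexin, averaged 72.0 ± 2.50 CPM in CUMS and 83.5 ± 2.70 CPM in Control (-0.21 ± 0.050, adjusted p = 0.034), but its adjusted p was above 0.05 whichever library was left out (0.056 to 0.16). Calreticulin (*Calr*) was at -0.20 ± 0.062 and did not pass with edgeR (adjusted p = 0.12). It passed under 4 of the 15 alternatives, without CUMS replicate 1 (0.013), with DESeq2 (0.027), with the replicate block (0.035) and with voom (0.044).

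Most genes of the standard proteasome also had lower values, though nearly none passed. Of the 14 genes of the standard core, *Psmb7* fell, 11 had a log2 fold change below 0 and the median was -0.10. Of the 21 genes of the 19S cap, which recognises and unfolds substrates, 18 were below 0 with a median of -0.19, where 51.6% of all genes tested were below 0. With edgeR 0 cap genes passed in either direction, though 10 had an unadjusted p under 0.05, all lower. There were 3 called lower with DESeq2 (5.3% of the 10575 genes with a DESeq2 adjusted p) and 3 lower without CUMS replicate 1. Of 9 activator and assembly genes, *Pomp*, the chaperone that completes the core, fell to 26.1 ± 0.786 CPM in CUMS, against 34.3 ± 5.22 CPM in Control (-0.39 ± 0.096, adjusted p = 0.04), a call lost without any single library other than Control replicate 3 (0.072 to 0.17).

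Regulators of class I transcription moved upward where they passed. Of 21 tested, 4 rose and 0 fell with edgeR (6 and 0 with DESeq2, and 7 and 1 at an unadjusted edgeR p under 0.05), with a median of 0.07. The 4 became 1 without CUMS replicate 3 and 2 without Control replicate 2. *Nlrc5*, the class I transactivator gene, measured 30.2, 34.3 and 31.8 CPM in CUMS, against 18.2, 18.8 and 18.3 CPM in Control, without overlap (log2 fold change 0.80 ± 0.071, adjusted p = 9.0e-05). *Irf2*, an interferon regulatory factor gene, rose by 0.25 ± 0.048 (adjusted p = 0.013), and *Jak1*, a kinase of the interferon receptors, by 0.17 ± 0.038 (0.028). Leaving out CUMS replicate 3, or else either of Control replicates 2 and 3, raised the adjusted p of *Irf2* above 0.05 (0.064 to 0.082). For *Jak1* the same held for CUMS replicates 2 and 3 and Control replicates 1 and 2 (0.067 to 0.13). *Irf1* had 187, 180 and 179 CPM in CUMS and 165, 165 and 163 CPM in Control, without overlap, but did not pass with edgeR (0.15 ± 0.04, adjusted p = 0.064). It passed under 3 of the 15 alternatives, DESeq2 (0.0057), voom (0.044) and a filter of at least 1 CPM in 3 libraries (0.046).

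**Figure D4:**
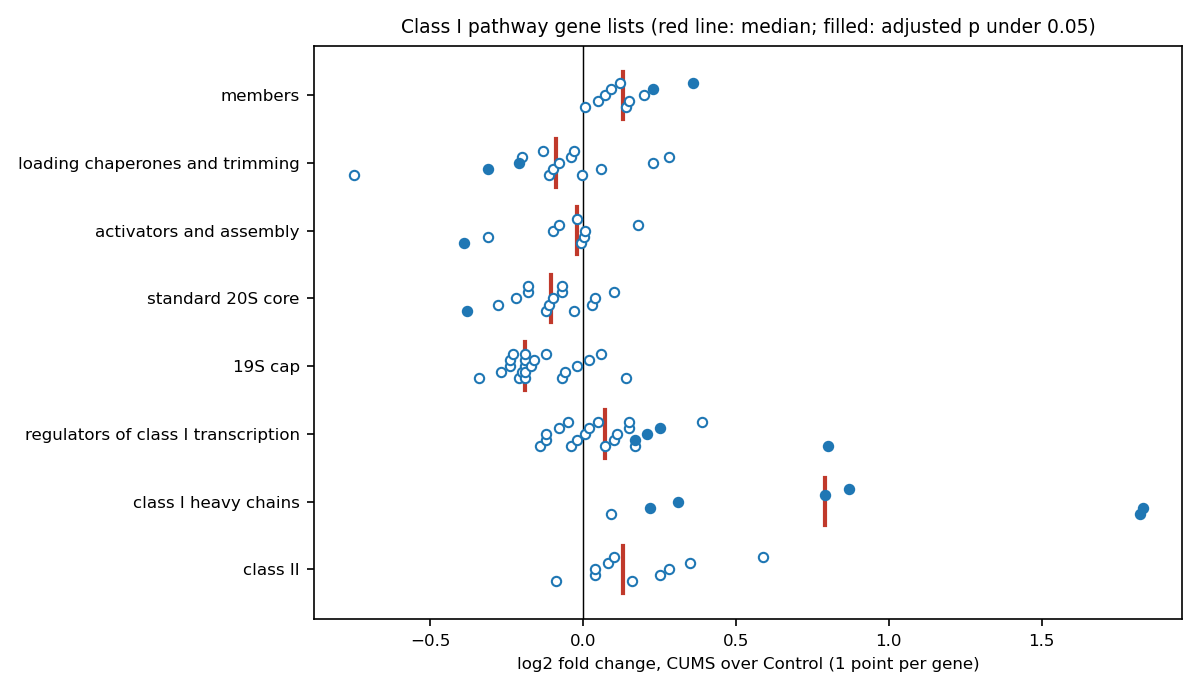
Log2 fold change of CUMS over Control for each tested gene (1 point) of the 10 members and of the 7 other lists of the pathway, filled where the edgeR adjusted p was under 0.05, with the list median as a red line. The members, the regulators, the class I heavy chains and the class II genes have medians above 0, and the chaperone, activator, core and cap lists have medians below 0.

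The class I heavy chain list had 6 of 7 genes higher in CUMS and a median of 0.79. Beside *H2-K1* and *H2-D1* these were *H2-Q6* at a log2 fold change of 1.83, *H2-Q7* at 1.82, *H2-Q4* at 0.87 and *H2-T22* at 0.31. The H2-Q genes are related in sequence to one another, so their single values are uncertain. The class II pathway presents peptides in dendritic cells, B cells and macrophages. Of 10 genes of this pathway, 0 were past the threshold in either direction with edgeR and with DESeq2. At an unadjusted edgeR p under 0.05 there was 1. Of these, 9 of 10 had a log2 fold change above 0, and their median was 0.13, equal to that of the members. They had a summed level of 39.1 to 44.1 CPM in CUMS and 37.4 to 39.8 CPM in Control.

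The libraries carried the neutrophil markers at high level (14 of 14 tested, a summed 108722 to 134744 CPM in CUMS and 127454 to 138696 CPM in Control). Of the 14, 3 were called higher in CUMS with edgeR, the early granule genes *Elane* (log2 fold change 2.23 ± 0.32, adjusted p = 0.0025) and *Mpo* (1.03 ± 0.19, 0.0095) and the late granule gene *Mmp9* (0.12 ± 0.029, 0.038). The secondary granule genes *Camp* (-0.27 ± 0.069, 0.046) and *Ltf* (-0.11 ± 0.028, 0.044) were called lower. Without single libraries the adjusted p reached 0.18 for *Mmp9*, 0.21 for *Camp* and 0.26 for *Ltf*. For *Elane* and *Mpo* it stayed under 0.05 (at most 0.017 and 0.048). *Elane* and *Mpo* were scarce, at a mean of 2.13 and 6.95 CPM in CUMS and 0.454 and 3.42 CPM in Control. Markers of other cells were also measured. Class I genes are expressed by most nucleated cells. B cell markers summed to 34.1 to 39.8 CPM in CUMS and 23.2 to 31.5 CPM in Control, with 9 of 9 above 0 in log2 fold change, 0 called with edgeR and 1 at an unadjusted p under 0.05. Erythroid markers summed to 2526 to 3013 CPM in CUMS and 1307 to 1877 CPM in Control, with 9 of 12 called higher, among them *Hba-a1*, *Alas2* and *Slc4a1*. Monocyte and macrophage markers summed to 686 to 775 CPM in CUMS and 722 to 764 CPM in Control, with *Csf1r* and *F13a1* of 10 called higher. Of these 10, 6 had a log2 fold change above 0 and 4 below, with 1 lower at an unadjusted p under 0.05. *Ly6c2* made up most of the sums, at a mean of 484 CPM in CUMS and 530 CPM in Control. The adjusted p of *Csf1r* ran from 0.041 to 0.11 without single libraries. Sums overlapped for the dendritic markers (52.5 to 60.7 CPM in CUMS, 58.2 to 63.1 in Control, *Xcr1* at 0 in all libraries) and for T and NK cells (4.32 to 6.02 CPM in CUMS, 4.25 to 6.16 in Control). *Itgax* made up most of the dendritic sums, at a mean of 48.9 CPM in CUMS and 52.8 CPM in Control. *Cd3d* made up most of the T and NK sums, at 4.25 and 4.4 CPM. Plasma cell markers summed to 67.6 to 73.5 CPM in CUMS and 82.9 to 85.8 CPM in Control, with *Xbp1* called lower and *Tnfrsf17* at 0 throughout. *Xbp1* made up most of these sums, at a mean of 65.9 CPM in CUMS and 80.7 CPM in Control. Of the 5 plasma cell markers tested, 3 had a log2 fold change above 0 and 2 below, with a median of 0.30. Eosinophil markers summed to 28.4 to 30.7 CPM in CUMS and 21.4 to 23 CPM in Control (*Prg2* and *Epx* of 6 called higher), and basophil and mast cell markers to 4.25 to 6.09 CPM in CUMS and 6.68 to 8.29 CPM in Control. The part of these cells in the differences of the class I genes was not tested.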

How the data were processed

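RNA-seq libraries of 3 CUMS and 3 Control samples were analysed. Among the tools named in the submitters' processing notes are HISAT2 2.1 and featureCounts 1.6.4, with mm10 as build. Which tool wrote the deposited values is not stated. Each deposited file has a whole number for every gene, treated here as an estimated count. Values of 4 and 8 were 1.89 and 1.66 times as frequent as the values beside them, which puts a read pair at about 4, and 1588 rows have identifiers of assembled transcripts. These counts summed to 78845457 to 109757558 per library, or 19711364 to 27439389 read pairs. Counting error thus follows the read pairs, not the printed sums.

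From them, genes were kept with edgeR 4.0.16 (R 4.3.3) filterByExpr defaults, scaled by TMM and tested by quasi-likelihood for CUMS against Control without covariates, adjusted by Benjamini-Hochberg over 15778 genes at 0.05. The script was tested on simulated data. CPM values are TMM-scaled, SEs come from the F statistic, 95% intervals are not adjusted, and ratios used exact two-sided permutation tests. DESeq2 1.42.0 and voom (limma 3.58.1) were run as alternatives, beside other scalings and filters, a replicate block, summed rows, division by 4 and leaving out each library. Coordinates and exon lengths are from GENCODE M21 (GRCm38, basic set), promoter windows from RefSeq (GRCm38.p6). The members and lists were chosen with earlier results of these data known. All members are named, as are partners of the 7 pairs, *Nlrc5*, *Irf1* and genes of the pathway lists past the threshold, except 1 regulator that is counted in its list and otherwise not reported here, and the neighbours, *Calr* and some marker genes past the threshold were added after their values were seen. *Nrdc* was found under its older symbol *Nrd1*.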

Additional observations from a re-analysis of the deposited data

How the results depend on the processing

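Over the 10 members and 15 alternatives, 137 of 150 values kept their direction and their side of the threshold, 7 lost the call (all *Psmb9*), 2 gained one (*B2m* with the replicate block, *Tap2* with DESeq2) and 4 turned round, all of them values near 0. The count of members higher in CUMS was 2, and 1 with no filter on low counts and without each single library (lowest and highest 1), where more genes or fewer samples entered. *Psme1* turned to -0.0029 with voom and ran from -0.05 to 0.05 without single libraries, *Psmb10* from -0.03 to 0.13, *Psme2* from -0.06 to 0.13, *Erap1* from 0.03 to 0.20 and *Tapbpl* from 0.07 to 0.21. The ratio of *Tapbp* to *Tapbpl* ran from a log2 difference of -0.17 to 0.005 and that of *Psme1* to *Psme2* from -0.08 to 0.09, against -0.07 and -0.007 with all libraries. The other 5 ratios kept their sign, that of *B2m* to *H2-K1* and *H2-D1* running from -0.22 to -0.08. With *Psme2* and *Psme2b* summed, an alternative chosen after seeing the data, the *Psme1* ratio differed by a log2 value of -0.04. Pathway genes lower in CUMS numbered 4, with DESeq2 8, and 1 to 6 without single libraries. The cause was not tested. Deviations of same-numbered samples from their group means correlated at 0.00814, 0.00345 and -0.0264 over 15778 genes. Those of differently numbered samples correlated at -0.0293 to 0.027. No pairing by number was seen, but correlations over all genes cannot exclude one, and no label states one. The replicate block raised all calls to 931, against 710 without it, the members higher to 3 and the pathway genes lower to 6. Depth limits *Psmb10*, *Tapbpl* and *Erap1* most, with 124 to 507 read pairs a library.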
